A study of Mus musculus with 16 samples.

Results

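The large histone gene cluster of mouse chromosome 13 was examined as 540 windows of 5 kb of the mm8 build, a stretch of 2.7 Mb in which the first window ends at position 21305000 and the last at 24000000. The windows were taken by position, and no measured value served as a filter. Earlier results of these data were known when the interval was chosen. The 540 windows are set against the other 23583 windows of chromosome 13, and the 19 autosomes together hold 492493 windows.

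Reads came from chromatin immunoprecipitation followed by sequencing (ChIP-seq) of mouse spleen cells. The question named by the title is whether Myc raises the output of genes in general. Myc, a transcription factor made from a proto-oncogene, was precipitated with an antibody to EGFP, which the series design names. RNA polymerase II (Pol2) was precipitated with its own antibody, and controls were precipitated with an unspecific IgG in every cell state. Resting B cells (B0) received no activator. Activated B cells (B4) received 25 µg/ml of lipopolysaccharide (LPS), a bacterial activator of B cells, for 4 h. A further set of B4 cultures also received 10058-F4, a small molecule that interferes with the pairing of Myc and its partner Max. Its dose is not given in the sources used here. T cells (T4) received 7.5 µg/ml of concanavalin A (ConA), a plant lectin that activates T cells, for 4 h. Cell type is given by the labels alone, since reads on chromatin carry no expression markers. Neither the animals' genotype and age nor the allele that carries EGFP is given in the labels.

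There were 2 Myc and 3 IgG libraries of B4, 1 Myc and 2 IgG libraries of B4 with 10058-F4, and 1 Myc and 1 IgG library each of B0 and T4. Pol2 had 1 library of B4 and 1 of B4 with 10058-F4. Whether replicate libraries stem from different animals is not stated, and any p-value below therefore reflects the spread of these libraries, which may be technical. A pair of T cell libraries at 14 h (T14) entered no comparison, since the names of the deposited files give the opposite antibodies to the labels. Library size on chromosomes 1 to 19 ran from 1278471 reads (B4 IgG replicate 2) to 7433203 reads (B0 Myc). The Pol2 library of B4 held 2377368 reads and that with 10058-F4 5130471. Reads were 24 to 30 bases long in B4 Myc replicate 1 and B4 IgG replicate 1, 25 in T cells and 45 in all others. The titles of B4 Pol2 and B4 IgG replicate 2 carry a mark, wt, that the Pol2 library with 10058-F4 lacks. What the mark stands for is not explained, and between the Pol2 libraries it cannot be told apart from the treatment.

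Histones are the proteins around which DNA is wound. The core histones H2A, H2B, H3 and H4 form the nucleosome, and H1 binds the DNA that enters and leaves it. The replication-dependent histone genes are short, have no introns, and sit close together in clusters. They are transcribed mainly as cells copy their DNA, and their mRNAs end in a stem-loop in place of a poly(A) tail. Pol2 density on chromatin shows where polymerase sits, paused or elongating, and is not a measure of mRNA.

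In RefSeq (build GRCm38.p6), chromosome 13 holds 54 genes with replication-dependent histone symbols. They fall into a first group of 23 (1 H1, 8 H2A, 7 H2B, 2 H3 and 5 H4 genes) and a second group of 31 (5 H1, 6 H2A, 7 H2B, 7 H3 and 6 H4 genes). The H2A count of the first group includes H2ac14, which is annotated as a pseudogene. Between the groups lie 147 other genes, of which 75 belong to the Vmn1r family of vomeronasal receptors, proteins that detect pheromones in the nose. No annotation of mm8 was at hand, so no window is assigned to a gene, and positions of the 2 builds must not be set against each other.

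To show what promoters of this gene class look like, the 150 bases before the annotated start are given for the first H2A, H3, H4 and H1 gene in RefSeq order that has a promoter entry. H2B is not shown, since its genes often start back to back with an H2A gene. All are written 5′ to 3′ on the gene's strand. Capitals mark the letters TATAAA of the TATA box and, on either strand, the letters CCAAT that the factor NF-Y can bind.
H2ac13 (GRCm38.p6 chr13:21716262-21716411, + strand): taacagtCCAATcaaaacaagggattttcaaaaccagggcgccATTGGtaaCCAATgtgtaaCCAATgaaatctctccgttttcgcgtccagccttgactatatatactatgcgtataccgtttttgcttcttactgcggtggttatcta
H3c10 (GRCm38.p6 chr13:21717478-21717627, + strand): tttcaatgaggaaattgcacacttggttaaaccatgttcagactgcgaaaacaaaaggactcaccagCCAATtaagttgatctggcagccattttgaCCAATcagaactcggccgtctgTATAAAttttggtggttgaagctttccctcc
H4c11 (GRCm38.p6 chr13:21734884-21735033, + strand): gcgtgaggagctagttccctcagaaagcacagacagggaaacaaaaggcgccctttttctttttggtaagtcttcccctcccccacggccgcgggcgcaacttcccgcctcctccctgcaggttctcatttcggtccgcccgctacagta
H1f5 (GRCm38.p6 chr13:21780626-21780775, - strand): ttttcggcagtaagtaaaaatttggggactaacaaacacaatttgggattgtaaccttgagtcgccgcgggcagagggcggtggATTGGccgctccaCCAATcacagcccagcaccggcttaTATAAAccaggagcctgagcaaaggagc
Of the 54 genes, 50 had a promoter entry, with 51 promoters in all. In the 250 bases before the start, both strands searched, CCAAT was found in 43 of 51 (84.3%), against 33.8% of all 32851 promoters in the table. TATAAA was found in 26 of 51 (51.0%), against 12.4% of all promoters. CACGTG, the core letters of the E-box that Myc and Max can bind, was found in 0 of 51, against 6.02% of all promoters. Both CCAAT and the TATA box letters were thus more frequent in these promoters than over the table, and the absence of CACGTG covers only these letters in this window.

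Pol2 was denser in the histone interval than on the rest of chromosome 13, and the excess lay in few windows. Levels are given per 5 kb window as RPM, reads per 1000000 kept reads of chromosomes 1 to 19. To leave out stretches to which few reads map, windows needed at least 20 reads summed over the 8 IgG libraries. Of the 540 windows 403 passed, and 137 did not. Outside the interval 20073 of 23583 passed.

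Over the 403 windows that passed, mean Pol2 was 2.75 RPM in B4 and 3.99 RPM with 10058-F4, against 2.0 and 1.98 RPM on the rest of the chromosome. B4 Pol2 was thus 1.38-fold (95% counting interval 1.32 to 1.43) as dense as on the rest of the chromosome. With 10058-F4 it was 2.01-fold (1.97 to 2.06) as dense. The same ratio ran from 0.827 to 1.01 in the 5 IgG libraries of these cells, so both Pol2 libraries stood above every control. The intervals are exact binomial and cover counting error only, not differences between cultures. The median window did not show the excess: it was 1.26 RPM inside and outside in B4, and 0.780 RPM inside against 0.975 outside with 10058-F4.

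As a share of all reads on chromosome 13, the interval took 2.7% in B4 Pol2 and 3.90% in Pol2 with 10058-F4. The 5 IgG libraries gave 1.68% to 2.02%. The groups did not overlap, and the exact two-sided permutation test over the 7 libraries gave p = 0.0476, the smallest p that 21 groupings allow. This test pools both Pol2 libraries and so says nothing of 10058-F4. Without any 1 of the IgG libraries the exact permutation test gave p = 0.0667, the smallest that 6 libraries allow.

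Windows of at least 10 RPM numbered 31 of 403 in B4 (7.69%), against 449 of 20073 (2.24%) on the rest of chromosome 13 and 2.34% of all covered windows of the chromosome. With 10058-F4 they numbered 46 (11.4%), against 3.15% on the rest and 3.31% of the whole chromosome. High windows were therefore over 3 times as frequent in the interval in both libraries. The 10 highest windows held 19.6% of the interval's Pol2 reads in B4 and 33.8% with 10058-F4. The single highest held 3.43% and 10.3%.

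**Figure D1:**
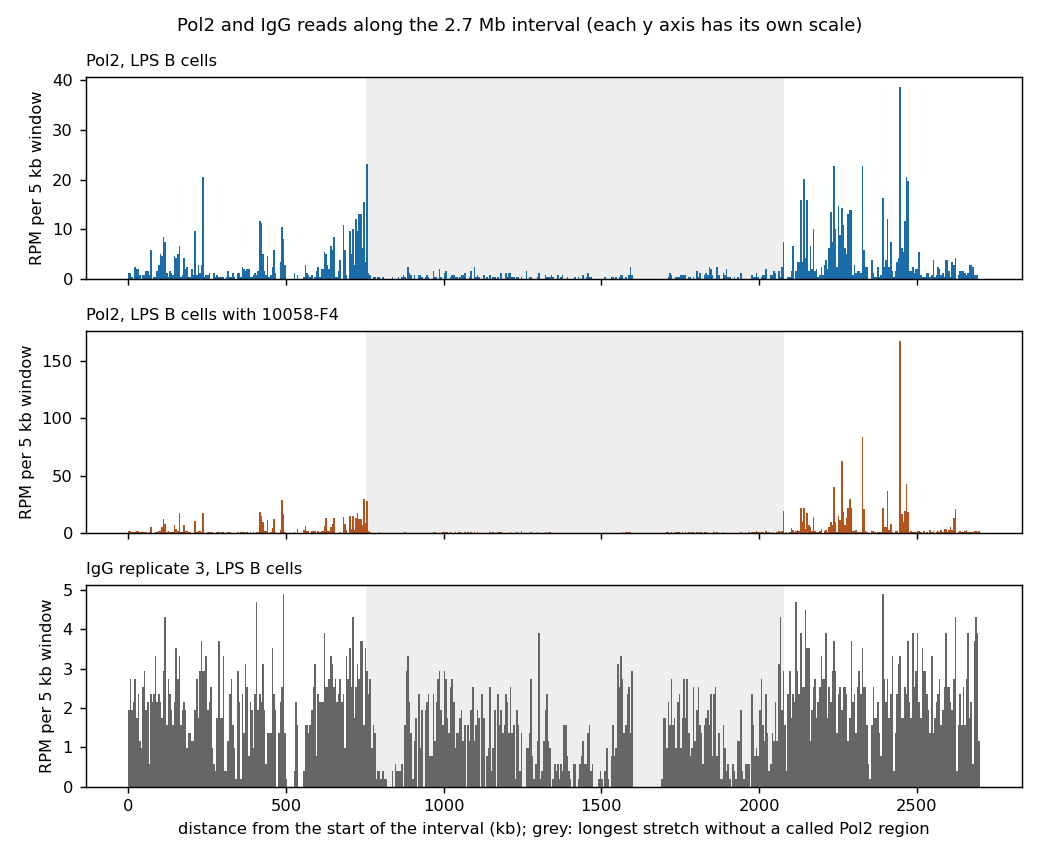
RPM in each of the 540 windows, against distance from the start of the interval in kb, for B4 Pol2 (top), Pol2 with 10058-F4 (middle) and B4 IgG replicate 3 (bottom), each on its own y axis. Pol2 lies in 2 groups of windows on either side of the grey stretch of 1318.3 kb without a called region, and the highest window reaches 38.7 RPM in B4 and 168 RPM with 10058-F4.

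The window with most Pol2 in both libraries was chr13:23745001-23750000, with 92 reads (38.7 RPM) in B4 and 862 reads (168 RPM) with 10058-F4. In the B4 library the next were chr13:22055001-22060000 with 55 reads (23.1 RPM), and chr13:23535001-23540000 and chr13:23625001-23630000, each with 54 reads (22.7 RPM). The windows at 21535001 and 23765001 each held 49 reads (20.6 RPM), and that at 23440001 held 48 (20.2 RPM). Below 20 RPM, the windows at 23770001, 23690001 and 23430001 held 47, 39 and 38 reads. Of these 10 windows 8 lie near the distal end of the interval, beyond position 23430000, and counting error leaves most neighbours in this order indistinguishable. At least 40 RPM was reached by 0 of 403 covered windows in B4, near the 0.184% (37 of 20073) outside. With 10058-F4 it was reached by 5 (1.24%), against 0.428% outside.

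Pol2 regions were called in 500 bp bins over the pooled IgG reads of their cell state (Poisson test, Benjamini-Hochberg adjusted value below 0.01, at least 4-fold). In B4 there were 58 called regions in the interval and 871 on the rest of chromosome 13. Per Mb of covered windows this is 28.8 inside and 8.68 outside. With 10058-F4 there were 95 inside and 1662 outside, or 47.1 and 16.6 per Mb. Called regions were thus about 3 times as dense in the interval in both libraries. Windows with a B4 region made up 13.9% of the covered windows inside (56 of 403) and 4.20% outside (843 of 20073).

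The deeper 10058-F4 library can call weaker regions. Thinned to the depth of the B4 library, it gave 79 regions in the interval, still more than the 58 of B4. The thinned count outside is not given, so this surplus is not shown to be particular to the interval. At full depth the count outside rose too, from 871 to 1662. Of the 58 B4 regions 37 were a single 500 bp bin, as were 526 of 871 outside, a like share. The widest in the interval, 6 of them, spanned 1500 bp. These 6 began at 23524501, 23538001, 23562001, 23629001, 23746001 and 23768501, all in the distal group. On the rest of the chromosome the widest region spanned 25000 bp, so no long Pol2 domain of that kind was called among the histone windows.

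The called regions lay in 2 groups with a long empty stretch between them. The first group held 27 B4 regions with summits from 21370350 to 22058450, a span of 688.1 kb. The second held 31 regions from 23376750 to 23807050, a span of 430.3 kb. The 1318.3 kb between them held 0 called regions in B4, and with 10058-F4 the summits at its edges lay within 100 bp of those in B4 and it again held 0. In B4 the next longest empty stretches ran from 21538450 to 21717750 (179.3 kb) and from 21787850 to 21924550 (136.7 kb), both in the first group. With 10058-F4 the latter was not empty, with called regions that include chr13:21859501-21860500.

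Of the 263 windows inside the longest stretch, 147 passed the IgG filter, so a part of it is poorly covered. Its mean over all windows was 0.448 RPM of Pol2 in B4 and 0.325 RPM with 10058-F4. The 5 IgG libraries of these cells gave 0.794 to 1.17 RPM there, so Pol2 lay below the controls. No window of the stretch exceeded 2.52 RPM in B4 or 2.14 RPM with 10058-F4. The windows before it averaged 2.87 RPM in B4 and 3.57 RPM with 10058-F4, and those after it 4.59 and 7.99 RPM. Pol2 thus sat in the outer windows in both libraries, with the higher mean after the empty stretch.

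Neighbouring summits were closer together than elsewhere on the chromosome. The median distance in B4 was 8700 bp (95% order-statistic interval 6000 to 12300, n = 57) in the interval and 24600 bp (21100 to 27300, n = 869) outside. With 10058-F4 it was 6050 bp (4500 to 7500, n = 94) inside and 10400 bp (9300 to 12100, n = 1660) outside. In both libraries the intervals inside and outside do not overlap. Thinned to the depth of B4, the 10058-F4 library gave 7450 bp (4500 to 11600), which overlaps the B4 value, so a difference in spacing between the treatments was not detectable at equal depth.

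Very short distances were little more frequent in the interval. In B4 16 of 57 distances (28.1%) were at most 5 kb, against 22.4% outside, while 33 of 57 (57.9%) were at most 10 kb, against 34.5%. Distances over 100 kb made up 5.26% inside (3 of 57) and 20.8% outside. The intervals of the 2 groups overlapped: the B4 median was 9250 bp (5900 to 24600) before the empty stretch and 7950 bp (4600 to 12100) after it. With 10058-F4 these were 6700 bp (5600 to 13600) and 4600 bp (3000 to 7300), again with overlapping intervals. Distances between neighbouring summits are not independent of each other, and the intervals do not allow for that.

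**Figure D2:**
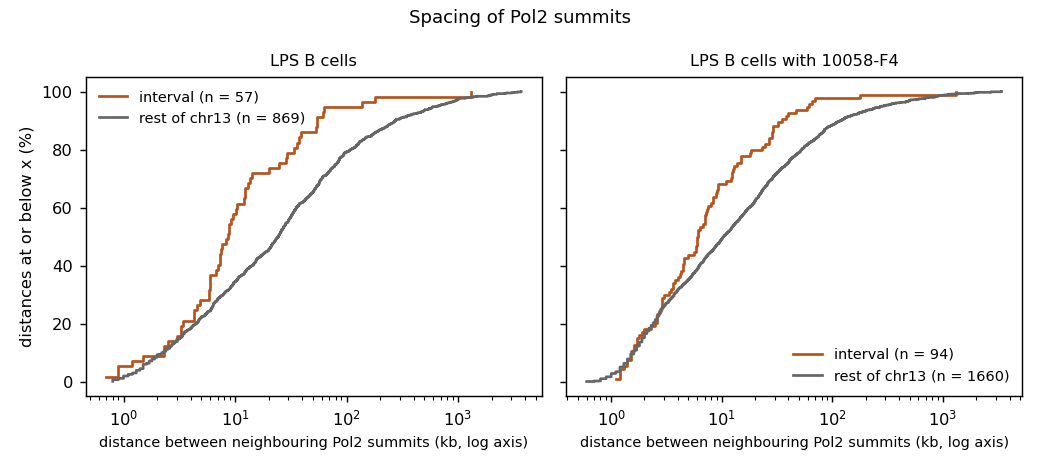
Share of distances between neighbouring Pol2 summits (y axis, %) at or below a given distance (x axis, kb, log scale) in B4 (left) and B4 with 10058-F4 (right), for the histone interval and for the rest of chromosome 13. The curves run together up to a few kb and part above 5 kb, where 57.9% of the B4 distances in the interval but 34.5% of those outside are at most 10 kb.

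Pol2 signal in the interval was higher with 10058-F4 than without, and a few windows carried much of that difference. With 1 Pol2 library on each side there is no replicate check, and intervals cover counting error only. Over the covered windows the summed fold was 1.45 (1.39 to 1.51) in the interval, against 0.989 (0.982 to 0.997) on the rest of the chromosome. In the 85 windows of the interval with a called region it was 1.78 (1.69 to 1.88), against 1.38 (1.36 to 1.39) in 1571 outside. Pol2 in such windows was thus higher with 10058-F4 outside too, and the regions were called from the same libraries. Over all covered windows the fold was 1.24 (1.15 to 1.33) before the longest empty stretch, 0.707 (0.600 to 0.835) within it and 1.74 (1.64 to 1.85) after it. Without its 3 windows highest with 10058-F4, the second group gave 1.37 (1.29 to 1.47), which overlaps the first group, and the interval gave 1.25 (1.19 to 1.31). Those 3 windows were left out of the second group only, after seeing the data. Overlap of 2 intervals is not a test of a difference, so whether the groups differ without them was not tested.

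The highest ratios per window, among the 65 windows with at least 40 Pol2 reads in the libraries together, were the following. At chr13:23920001-23925000 Pol2 went from 10 reads (4.21 RPM) to 109 (21.2 RPM), a fold of 5.05. At chr13:23560001-23565000 it went from 34 reads (14.3 RPM) to 321 (62.6 RPM), a fold of 4.37 (3.07 to 6.43). At chr13:23745001-23750000 the rise from 38.7 to 168 RPM was 4.34-fold (3.50 to 5.44). All of these windows lie in the second group or just distal to it. At chr13:23915001-23920000, beside the first of them, reads went from 7 to 65 (4.30-fold), and at chr13:23625001-23630000 from 54 to 428, or 22.7 to 83.4 RPM (3.67-fold, 2.76 to 4.97).

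The lowest ratios lay between 0.724 and 0.842. At chr13:23525001-23530000 Pol2 went from 32 reads (13.5 RPM) to 50 (9.75 RPM), and at chr13:21535001-21540000 from 49 (20.6 RPM) to 89 (17.3 RPM). The windows at 21940001, 23460001 and 23520001 went from 16 to 25, 16 to 26 and 15 to 27 reads. None of these folds fell below 1 beyond counting error. Of the 65 windows 55 were higher in RPM with 10058-F4. The minimum of 40 summed reads favours rises, since that library is the deeper one and windows with few reads in B4 pass through it alone, so nothing is read from this count. Among called regions 84.7% of those in the interval were higher, against 80.2% outside.

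Across called regions the typical change lay close to that on the rest of the chromosome. The interval held 98 regions called in either library, 51 in both, 44 with 10058-F4 only and 3 without it only. Their median log2 ratio was 0.72 (0.55 to 0.95), against 0.79 (0.72 to 0.82) for the 1819 regions outside. Over 2-fold higher were 38 of 98 (38.8%), against 42.8% outside and 40.7% of all called regions of chromosome 13, so the share lies near the background. The regions were called from the same libraries, and those called with 10058-F4 only were selected for being high there.

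Summed over all 98 regions the fold was 1.97 (1.86 to 2.09), against 1.52 (1.5 to 1.54) outside, and regions called with 10058-F4 only add to both sums by their selection. Over the 51 regions called in both libraries it was 1.90 (1.79 to 2.02), against 1.45 (1.43 to 1.47) for 665 outside. Leaving the 3 regions highest with 10058-F4 out of the 98 gave 1.64-fold (1.54 to 1.74), an alternative chosen after seeing the data. Among regions of at least 10 RPM without 10058-F4, 2 of 26 in the interval rose over 4-fold (7.69%), against 1 of 315 outside (0.317%) and 0.88% of both together. These 2 were chr13:23562001-23564000, which went from 30 reads (12.6 RPM) to 313 (61.0 RPM), and chr13:23745501-23748000, from 89 (37.4 RPM) to 858, a fold of 4.47 (3.59 to 5.62). Just under that limit, chr13:23628001-23630500, went from 64 reads (26.9 RPM) to 522 (102 RPM), a fold of 3.78. The median log2 ratio of the 26 was 0.60, against 0.51 outside. In the other direction chr13:23524501-23526000 went from 29 reads (12.2 RPM) to 31 (6.04 RPM), a fold of 0.495 (0.289 to 0.852).

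**Figure D3:**
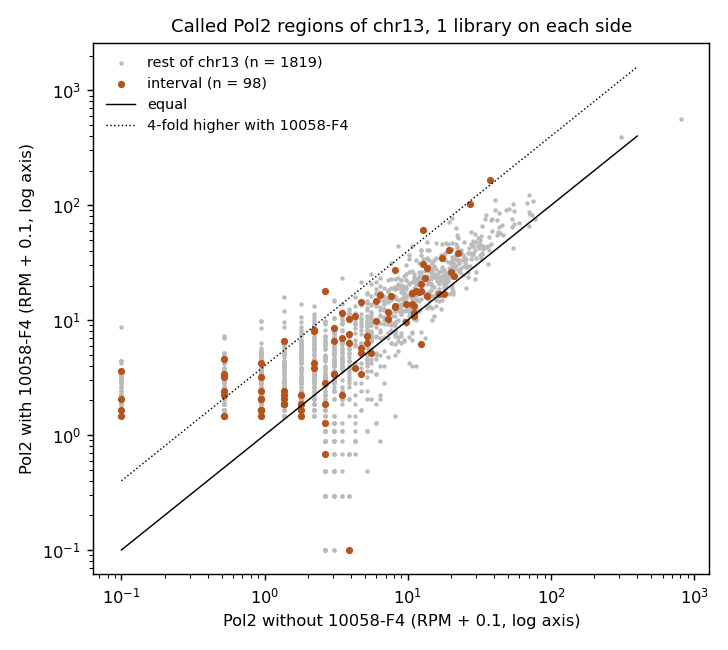
Pol2 with 10058-F4 (y axis) against Pol2 without (x axis) in every called region of chromosome 13, in RPM plus 0.1 on log axes, with lines of equal level and of a 4-fold rise. Most of the 98 regions of the interval lie in the cloud of the 1819 regions outside. Among the exceptions, chr13:23745501-23748000 starts from 37.4 RPM and is 4.47-fold higher, and chr13:23562001-23564000 starts from 12.6 RPM and is 4.83-fold higher.

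The 2 Pol2 libraries differed in their background, which moves with these ratios. In windows of the interval without a called region the fold was 0.727 (0.666 to 0.794), and outside it was 0.751 (0.744 to 0.759). Scaled to such background windows in place of library size, the median log2 ratio of the 98 regions was 1.16. The same scaling also raises the ratios of regions outside, whose median under it is not given, so 1.16 does not set the interval apart. Set over the IgG of the same state, Pol2 in windows with a B4 region was 3.71-fold (3.46 to 3.97) in B4 and 8.14-fold (7.61 to 8.71) with 10058-F4. On the rest of the chromosome these were 4.43-fold and 5.97-fold. The windows were chosen by B4 Pol2, so the B4 folds describe that choice. The part of the background in the difference was not tested beyond these values.

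A limma fit with voom weights over 14 libraries tested the Pol2 change with 10058-F4, with the lone Pol2 libraries assumed to vary like the replicated groups. Of the 95805 windows tested on the autosomes, 7 were called higher (0.00731%) and 1 lower (0.00104%) at an adjusted p under 0.05, and 0 of the 86 tested in the interval. At an unadjusted p under 0.05, 14 of the 86 were higher and 2 lower, against 127 higher and 140 lower of 3663 on the rest of chromosome 13, and 3147 and 4152 of the 95805. In that fit chr13:23745001-23750000 had a log2 fold change of 2.11 (SE 0.53, limma adjusted p = 0.248) and chr13:23920001-23925000 one of 2.27 (SE 0.59, limma adjusted p = 0.292). The rises exceeded counting error and did not pass this test. A further fit entered the replicate pairs of the titles as a block and also left out B4 IgG replicate 2. It tested 96 windows in the interval and 111659 on the autosomes. In the interval 4 of them passed, beside 521 higher and 215 lower on the autosomes. What the block and the left-out library each added was not separated. With background scaling, added after seeing the data, 1 of the 86 windows of the interval passed. So did 1 of 3663 on the rest of chromosome 13 and 59 of the 95805 on the autosomes. That scaling moved the median log2 change on the rest of chromosome 13 from 0.0123 to 0.449.

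Myc was close to its IgG control over the interval as a whole. In the 403 covered windows, Myc over IgG by summed reads was 1.02 (0.975 to 1.06) in B0 and 1.02 (0.962 to 1.08) in T4. It was 1.04 (0.989 to 1.09) and 0.980 (0.938 to 1.02) in the B4 replicates, and 0.981 (0.936 to 1.03) with 10058-F4. All these intervals include 1. The interval took 2.01% and 1.96% of chromosome 13 reads in the B4 Myc libraries and 2.02%, 1.76% and 1.91% in the B4 IgG libraries. These ranges overlap (exact two-sided permutation test, p = 0.5), and 2 libraries against 3 cannot go below p = 0.1.

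In the 56 windows with a called B4 Pol2 region, the B4 replicates moved apart: replicate 1 lay above its value over all covered windows and replicate 2 did not. B0 gave 1.09 (0.988 to 1.20), against 1.14 (1.11 to 1.16) in the 843 such windows on the rest of the chromosome. B4 Myc replicate 1 gave 1.34 (1.21 to 1.48), against 1.44 (1.41 to 1.48) outside, and replicate 2 gave 0.966 (0.874 to 1.07), against 0.985 (0.961 to 1.01). The replicates of B4 thus differed from each other by more than the interval differed from the rest. With 10058-F4 the fold was 1.04 (0.933 to 1.16), against 1.03 (1.01 to 1.06). T4 gave 1.10 (0.971 to 1.25), against 1.27 (1.22 to 1.31).

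These windows were picked from Pol2 of B4, so for B0 and T4 they mark where Pol2 sat in another cell state. Single windows over 2-fold higher than IgG numbered 5 of 56 in B0 (8.93%, against 6.45% over all such windows of chromosome 13). They numbered 11 in B4 replicate 1 (19.6%, against 19.9%), 1 in replicate 2 (1.79%, against 4.12%) and 6 with 10058-F4 (10.7%, against 4.12%). In T4 they numbered 4 (7.14%), against 24.9%. The interval's share was nominally above that of the chromosome in B0 and with 10058-F4, close to it in B4 replicate 1, and below it in B4 replicate 2 and T4, all from 1 to 11 windows. T4 had 1 Myc and 1 IgG library, so this carries no replicate check.

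The B4 values depended on which IgG library served as control. Over the IgG library of the same title mark and read length, both Myc replicates gave 1.10 in the 56 windows (0.978 to 1.23 and 0.988 to 1.23). On the rest of the chromosome the same pairs gave 1.33 (1.29 to 1.37) and 1.13 (1.10 to 1.16). The replicates thus gave like values in the interval under that pairing, which was chosen after seeing the data. The IgG libraries differed among themselves in these windows: IgG replicate 1 was 1.39-fold (1.26 to 1.54) replicate 3 in the interval and 1.24-fold (1.21 to 1.28) outside. IgG replicate 2 was 1.06-fold (0.909 to 1.24) replicate 3 in the interval and 1.46-fold (1.41 to 1.51) outside.

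Closer to the Pol2 summits the difference between the interval and the rest was larger. Reads were counted in the 500 bp stretch centred on each of the 58 B4 summits. Myc over IgG in B4 was 1.52 (1.20 to 1.92, 97 Myc reads) in replicate 1 and 1.34 (1.08 to 1.66, 124 reads) in replicate 2. Around the 871 summits outside these were 2.22 (2.11 to 2.33) and 1.60 (1.52 to 1.68). In replicate 1 the intervals do not overlap, and in replicate 2 they do. T4 gave 1.18 (0.861 to 1.64), against 1.61 (1.49 to 1.74), with overlap. B0 gave 1.14 (0.953 to 1.38), against 1.20, and B4 with 10058-F4 gave 1.22 (0.979 to 1.52), against 1.26. Summits in the interval had the lower Myc fold in all 5 libraries, and only in B4 replicate 1 was the gap beyond counting error.

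**Figure D4:**
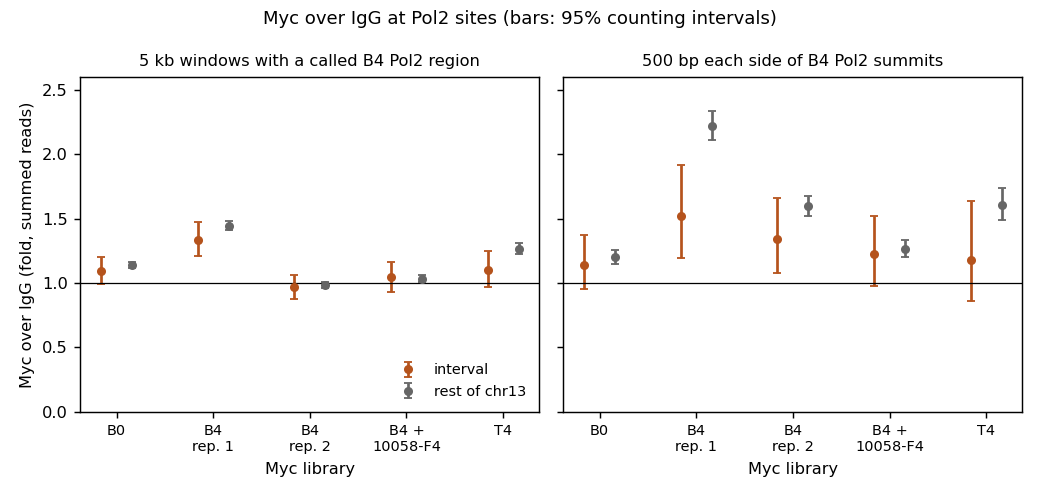
Myc over IgG (fold of summed reads, y axis from 0) for 5 Myc libraries, with 95% counting intervals, in the histone interval and on the rest of chromosome 13. Left: 5 kb windows with a called B4 Pol2 region. Right: the 500 bp stretch centred on each B4 Pol2 summit, where the panel heading wrongly names 500 bp on each side. Around summits the interval lies below the rest in each library, with the widest gap in B4 replicate 1 (1.52 against 2.22).

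Over classes of B4 Pol2 level, Myc over IgG in the interval was nominally higher where Pol2 was higher in both B4 replicates. From 2 to 5 RPM it was 1.05 (0.939 to 1.17) and 0.894 (0.807 to 0.988), from 5 to 10 RPM 1.30 (1.14 to 1.49) and 0.926 (0.809 to 1.06), and from 10 to 20 RPM 1.33 (1.14 to 1.55) and 0.967 (0.830 to 1.12). The intervals of neighbouring classes overlap in both replicates, and in replicate 2 those of the lowest and highest class overlap too. On the rest of the chromosome replicate 1 rose from 0.982 in the lowest class to 1.87 in the highest. Replicate 2 was not in order there, with 0.914, 0.859, 0.958 and 1.21 from the lowest class up. In the 7 covered windows with at least 20 RPM of B4 Pol2, Myc over IgG was 1.59 (1.24 to 2.03) and 1.06 (0.823 to 1.36) in the B4 replicates and 1.07 (0.772 to 1.49) in T4. On the rest of the chromosome, 165 such windows gave 1.87, 1.21 and 1.41. At chr13:23745001-23750000, the highest Pol2 window, B4 Myc held 11 and 9 reads and the summed IgG 40, folds of 1.25 (0.580 to 2.49) and 0.709 (0.302 to 1.48). In that window Myc was not detectable above IgG at this depth in either B4 replicate.

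By the mean of the B4 replicates, the highest Myc window was chr13:21615001-21620000, with 8 and 8 Myc reads over 10 IgG reads (folds of 3.65 and 2.52). It held 4 Pol2 reads and no called region. In the same window B0 had 18 Myc reads over 2 IgG reads (4.97-fold, 1.19 to 44.2), and T4 had 7 over 2. The second was chr13:23440001-23445000, with 26 and 13 Myc reads over 28 IgG reads (4.23-fold, 2.39 to 7.49, and 1.46-fold, 0.696 to 2.92). This window is among the 10 with most B4 Pol2, and T4 there had 14 Myc reads over 14 IgG reads, a fold of 0.401 (0.177 to 0.907). The windows at 23340001, 23860001 and 21735001 came next, each with at most 11 Myc reads in a replicate.

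In T4 the highest windows were at 21350001 (21 Myc reads over 1 IgG read), 23485001 (21 over 2), 21965001 (20 over 2), 23925001 (18 over 2) and 22000001 (25 over 3). In B0 they were at 23555001 (19 over 2), 21615001 (18 over 2), 23895001 (25 over 4), 21980001 (29 over 5) and 23940001 (26 over 5). These folds rest on 1 to 5 IgG reads, and only the window at 22000001 in T4, and those at 23555001 and 21980001 in B0, held a called B4 Pol2 region.

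No window of the interval passed the replicated test of Myc. With 2 Myc and 3 IgG libraries of B4, limma called 0 of the 42 windows tested in the interval higher in Myc, and 0% of the 33481 tested on the autosomes. At an unadjusted p under 0.05, 92 of 1425 windows on the rest of chromosome 13 and 2918 of the 33481 were higher. In the interval it was 2 of the 42, a share no greater than this background: chr13:23440001-23445000 (log2 fold change 1.29, SE 0.47, limma adjusted p = 0.373) and chr13:22030001-22035000 (1.09, SE 0.41, limma adjusted p = 0.378). With the same contrast in the 14-library fit, limma called 70 windows on the autosomes, 1 of them on the rest of chromosome 13 and 0 in the interval.

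The changes of Myc over IgG between cell states gave 0 calls in the 86 windows tested in the interval, and 0% of the 95805 on the autosomes, for LPS, for 10058-F4 and for T4 against B4 alike (limma, 14 libraries). B0, T4 and B4 with 10058-F4 have 1 Myc library each, so their spread was taken from the replicated groups. At an unadjusted p under 0.05 there were 0 windows for LPS, 0 for 10058-F4 and 2 for T4 against B4, both lower in T4. On the autosomes that limit was passed by 1208 higher and 897 lower for LPS, 1317 and 1641 for 10058-F4, and 1540 and 1247 for T4 against B4, so the interval's counts lie near the background. The 2 windows were chr13:23440001-23445000 (log2 difference -2.58, SE 0.82, limma adjusted p = 1.00) and chr13:23550001-23555000 (-1.84, SE 0.82, limma adjusted p = 1.00). The 3 contrasts share the B4 libraries, so they are not independent.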

How the data were processed

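Deposited files hold 1 line per aligned read of a library (chromosome, first and last position, read length, strand) and a score column that is 0 throughout, as deposited, and was not used. Per the submitters' processing notes, CASAVA 1.0, Bowtie 0.12.7 and build mm8 were used. Settings, the treatment of reads with several matches and the coordinate base are not given in the sources used here, so positions may be off by 1 base.

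From each library 1 read per 5′ end and strand on chromosomes 1 to 19 was kept (5.29% removed in B4 Myc replicate 1, at most 0.0808% elsewhere) and counted at its midpoint. Over 5 kb windows, chi-square per degree of freedom between replicate libraries was 1.47 to 1.99, above sampling noise. The B4 Myc replicates were therefore kept apart, and limma and the permutation tests took each library on its own. For folds over IgG and for region calls the IgG libraries of a state were summed. The counting intervals do not cover differences between the summed libraries. Regions, folds and tests were computed from these reads with Python 3.11.15, numpy 2.4.6, scipy 1.17.1, R 4.3.3 and limma 3.58.1. In the region call, the expected rate was the highest among the genome-wide mean and scaled IgG over the bin itself, 5 kb or 10 kb. IgG was scaled by the ratio of Pol2 to IgG reads in covered 10 kb bins with totals up to the median. This is a scale to background and not to depth. A summit is the middle of the 500 bp with most reads. Log2 ratios had 0.1 RPM added. limma was run on windows averaging 10 or more reads a library, with Benjamini-Hochberg adjustment. Folds of summed reads have exact (Clopper-Pearson) 95% intervals. The region call and limma were tested on simulated data.

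Named windows were the 10 highest in B4 Pol2, the 5 highest and 5 lowest Pol2 ratios (at least 40 reads), and the 5 highest Myc over IgG in B4, T4 and B0 (at least 20 Myc and IgG reads together). The 3 longest stretches between summits and the widest regions were named too, and the latter gave 6 tied. Regions named for a rise of over 4-fold, chr13:23628001-23630500 and chr13:23524501-23526000 were chosen after their values were seen. The interval, lists and tests were chosen with earlier results of these data known. Reads of chromosome X were left out, and of the T14 libraries only the one labelled IgG entered the IgG filter.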

Additional observations from a re-analysis of the deposited data

Results flagged for a closer look

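The T14 libraries entered no comparison because the names of the deposited files contradict their labels. In the 56 windows of the interval with a called B4 Pol2 region, the library labelled T14 Myc was 0.775-fold (0.674 to 0.889) the library labelled T14 IgG. It drew notice because the library labelled as the control was the higher one in data left out of the comparisons. On the rest of chromosome 13 the fold was 0.610 (0.589 to 0.632), so the library labelled IgG was the higher one there too, by more than in the interval.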

How the results depend on the processing

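Of 149 recomputed values, 125 kept their direction and side of the threshold or stayed within their interval. B4 Myc replicate 2, at 0.966 with an interval that includes 1, went above 1 around summits and over IgG replicate 3 and below 1 over IgG replicate 1. Keeping all windows without the IgG filter gave Pol2 densities of 1.21-fold in B4 and 1.77-fold with 10058-F4. Leaving out the 3 windows highest with 10058-F4 gave 1.29-fold and 1.63-fold (chosen after seeing the data). The median log2 Pol2 ratio in the interval was 0.51 in regions called in both libraries, 1.16 with background scaling and 1.21 over IgG. For the last 2 settings no value outside the interval is given. Merging bins within 1 kb gave a 10058-F4 spacing of 8300 bp, and the other spacings stayed within their intervals. In the 500 bp stretch centred on summits Myc over IgG was 1.52, 1.34 and 1.22 in B4 replicate 1, replicate 2 and B4 with 10058-F4. Over IgG replicate 1 alone, B4 Myc gave 1.10 and 0.793. Over IgG replicate 3 alone it gave 1.53 and 1.10. With the IgG of the same title mark, chosen after seeing the data, it gave 1.10 and 1.10. The Pol2 permutation p was 0.0667 without each IgG library in turn (lowest 0.0667, highest 0.0667), since fewer groupings are possible.

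The limma counts in the interval stayed at 0 under all but 2 of 61 alternatives. The Pol2 contrast gave 4 windows under the replicate block for the title pairs and 1 with background scaling (chosen after seeing the data). With background scaling 59 of 95805 windows passed on the autosomes. That block fit also left out B4 IgG replicate 2. On the autosomes it gave 521 higher and 215 lower of 111659 windows, against 7 and 1 of 95805. With 2 pairs the numbers are not shown to pair the samples (correlation of deviations 0.103), and the block changed no other call in the interval. Background scaling leaves a density within 1 library as it is. On the autosomes limma-trend called 1 window and the filter of at least 4 reads called 5 in the B4 Myc test. Depth limits single windows most, since the Myc folds of the named windows rest on at most 41 Myc reads in a library.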
